A study of Homo sapiens with 6 samples.

Results

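The 10 genes examined here encode the BAG proteins BAG1, BAG2, BAG3, BAG4, BAG5 and BAG6 together with STUB1, HSPBP1, ST13 and HSPH1, co-chaperones of HSP70. They were taken as a list of names and matched by Ensembl identifier and symbol. These are 10 of the 60658 genes in the deposited tables, and all 10 were found in every library.

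HSP70 binds unfolded stretches of a protein with a lid that closes when ATP is hydrolysed, and it lets go when ADP is exchanged for ATP. Nucleotide exchange factors speed that release: BAG-domain proteins, HSPBP1 and the large HSP70 relative HSPH1 (HSP110) do so by different folds, whereas ST13 (HIP) holds HSP70 in the ADP state. STUB1 (CHIP) is a ubiquitin ligase that docks on the tail of HSP70 and HSP90 and marks their clients for the proteasome, and the androgen receptor, the driver of prostate cancer, is among the clients of these chaperones.

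The data are RNA sequencing of C4-2B MDVR and CWR22Rv1, 2 lines of human prostate cancer cells, after 48 h with DMSO, 10 µM APO (apoptozole) or 10 µM VER (VER155008), both small-molecule inhibitors of HSP70. The study describes both lines as resistant to enzalutamide, an androgen receptor antagonist. C4-2B MDVR was derived from C4-2B and was grown in medium with 20 µM enzalutamide, while CWR22Rv1 was grown in the same medium without it. The line and the presence of enzalutamide therefore cannot be told apart. For C4-2B MDVR the titles of the libraries name that line, and the source and cell type entries name C4-2B and a parental line. Each of the 6 conditions had 1 library, so no difference within a line had a replicate check or a p-value, and every such statement describes these libraries. No gene was targeted, so no knockdown could serve as a check of the labels. In bulk RNA, fewer cells of a type and less RNA per cell cannot be told apart.

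Values are FPKM (fragments scaled to transcript length and library size), which the authors normalized between libraries, and may be compared between genes because they are per length. The relative depth of the libraries, read from the smallest values, ranged from 1 in C4-2B MDVR DMSO to 1.63 in C4-2B MDVR APO, with the other 4 between 1.14 and 1.25. Mitochondrial genes held 14.8% to 16.4% of summed FPKM in C4-2B MDVR, and in CWR22Rv1 10.4% with APO against 25.7% with DMSO and with VER. All 10 markers of prostate epithelium were above 1 FPKM in all 6 libraries, with summed levels of 1051 to 1520 FPKM. Among 4 neuroendocrine markers, 1 was above 1 FPKM in C4-2B MDVR and 3 in CWR22Rv1, with CHGA listed at 0 in the former and at 8.64 to 11.7 FPKM in the latter. Of 4 fibroblast markers 1 was above 1 FPKM in C4-2B MDVR and 2 or 3 in CWR22Rv1, none of 3 endothelial markers reached 1 FPKM in any library, and of 3 immune markers CD68 was at 1.98 to 3.68 FPKM in C4-2B MDVR and below 1 FPKM in CWR22Rv1, while PTPRC and CD3E stayed below 1 FPKM in every library. The part of these markers in the differences between the lines was not tested.

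All 10 genes were expressed above the filter of 0.1 FPKM in every library. Ordered by mean level, STUB1 was highest and was followed by BAG6, ST13, BAG1, HSPH1, HSPBP1, BAG3, BAG5, BAG4 and BAG2. The ranges over the 6 libraries of each pair of neighbours in that order overlapped. STUB1 lay between 115 and 145 FPKM and took first place in 4 libraries. BAG2, at 2.57 to 11.5 FPKM, was lowest in all 6. The summed level of the 10 genes was 621 FPKM in C4-2B MDVR DMSO, 553 with APO and 534 with VER, and in CWR22Rv1 it was 568 under DMSO, 509 under APO and 481 under VER. Both inhibitor libraries of each line thus stood below its DMSO library in this sum.

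**Figure D1:**
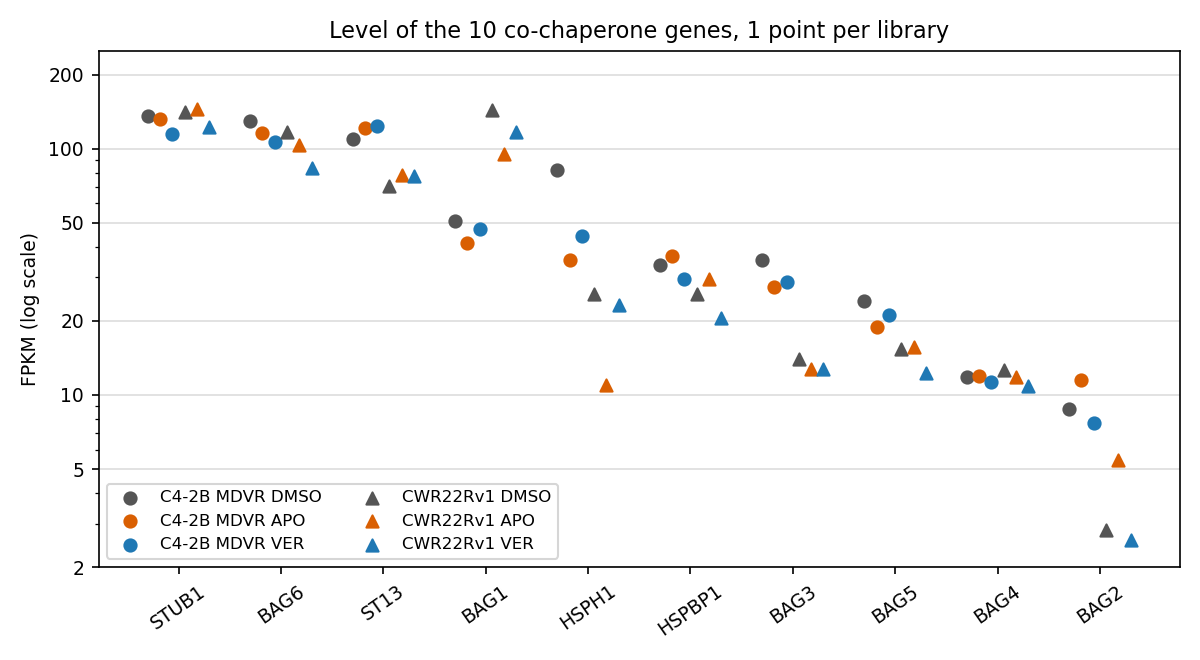
FPKM of each of the 10 genes on a log scale, with 1 point for each of the 6 libraries, circles for C4-2B MDVR and triangles for CWR22Rv1, coloured by treatment. BAG1 is higher in all 3 CWR22Rv1 libraries, BAG3 is higher in all 3 C4-2B MDVR libraries, and HSPH1 spans 11.0 to 81.7 FPKM while BAG4 stays between 10.8 and 12.6 FPKM.

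The question of the inhibitor comparisons was which of the co-chaperone genes differed in RNA level after 48 h of HSP70 inhibition. Changes are differences of log2(FPKM + 0.1), which understate the change of low genes, and a gene is said to have risen, fallen or changed where the difference was above 1.2-fold, a log2 value of 0.26. APO and VER were compared with the same DMSO library within a line, while the 2 lines share no library.

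With APO in C4-2B MDVR, BAG2 rose and BAG1, BAG3, BAG5 and HSPH1 fell, so that 5 of the 10 genes changed against 73.1% of the 20122 genes tested (37.7% higher and 35.4% lower). With APO in CWR22Rv1, BAG2 rose and BAG1 and HSPH1 fell, which is 3 of 10 against 74.8% of 21608 genes (35.6% higher and 39.2% lower). The genes changed the same way in both lines with APO were BAG1, BAG2 and HSPH1, 3 of 10 beside 42.9% of all genes tested in both lines. This set depended on scaling: with libraries brought to the same sum, BAG2 in C4-2B MDVR was at 0.24 and no longer passed. With VER in C4-2B MDVR, BAG3, BAG6 and HSPH1 fell and no member rose, 3 of 10 against 70.5% of genes (35.6% higher and 34.9% lower). With VER in CWR22Rv1, BAG1, BAG5, BAG6 and HSPBP1 fell and no member rose, 4 of 10 against 64.4% of genes (32.1% higher and 32.3% lower). BAG6 alone fell in both lines with VER, 1 of 10 beside 36.0% of all genes. Each inhibitor was also fitted over the 6 libraries with the line as a block, which takes out the level of each line. The residual error of a gene, with 2 degrees of freedom, then comes from how far the treatment changes differ between the lines. In limma this error was moderated toward a trend over all genes. The SE and p-values of a gene therefore also draw on other genes and do not measure the difference between the lines alone. With either inhibitor, none of the 10 genes passed an adjusted p of 0.05 in limma with Benjamini-Hochberg adjustment. Of all 23671 genes 2.37% passed with APO and 0.0634% with VER. At an unadjusted p under 0.05, 2 of the 10 genes passed with APO (19.8% of all genes) and 0 with VER (13.7%). HSPH1 was nearest with APO, with a mean log2 change over the lines of -1.22 ± 0.24 (SE) and a limma adjusted p of 0.0561. No member moved past 1.2-fold in opposite directions in the 2 lines with the same inhibitor, which 13.2% of all genes did with APO and 11.5% with VER.

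A share below that of all genes was seen in each comparison with DMSO, and the sizes of the changes showed the same, although neither difference was tested. The median absolute log2 change of the 10 genes in C4-2B MDVR was 0.23 with APO and 0.19 with VER, where that of all genes tested was 0.56 and 0.53. In CWR22Rv1 it was 0.16 with APO and 0.21 with VER, beside 0.60 and 0.41 for all genes. Low genes scatter more. In the order APO and VER, the share changed among genes with a mean above 10 FPKM was 65.8% and 63.1% in C4-2B MDVR. In CWR22Rv1 it was 69.2% and 53.3%. The part of expression level in the lower share of the members was not tested. With VER, 9 of the 10 genes had a log2 change below 0 in each line. The median of the 10 was -0.19 in C4-2B MDVR and -0.21 in CWR22Rv1, where the median of all genes was 0.00 in both.

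**Figure D2:**
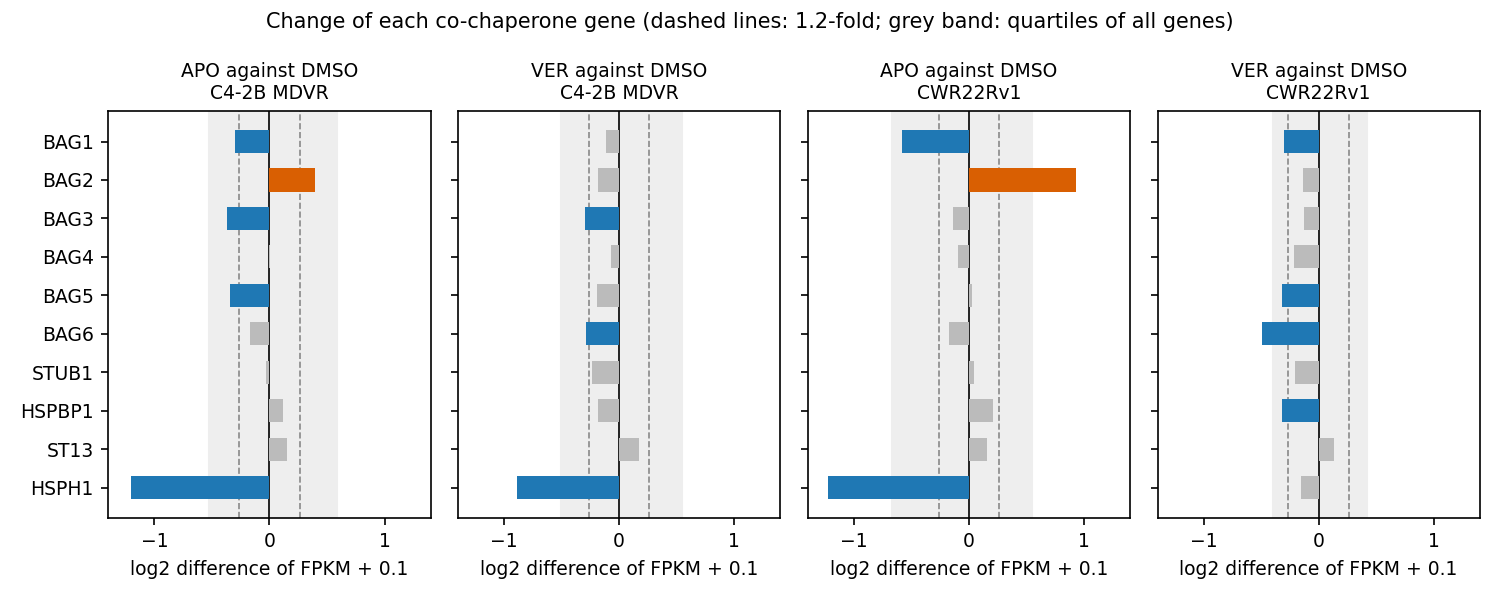
Log2 difference of FPKM + 0.1 between each inhibitor and DMSO for the 10 genes in each line (bars, 1 library per condition), with dashed lines at 1.2-fold and a grey band over the range between the quartiles of all genes tested. HSPH1 has the longest bar to the left with APO in both lines (-1.21 and -1.22), BAG2 the longest to the right (0.39 and 0.93), and BAG4, STUB1 and ST13 stay inside the dashed lines in all 4 panels as the values were deposited, though not in each rescaling.

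The 250 bases before the start of the 3 genes that changed the same way in both lines with APO, as the values were deposited, are given below. They are the RefSeq reference on GRCh38.p14, each written 5′ to 3′ on the strand of its gene, with capitals for a match to a 2-unit heat shock element.
HSPH1, chr13:31162389-31162638, minus strand: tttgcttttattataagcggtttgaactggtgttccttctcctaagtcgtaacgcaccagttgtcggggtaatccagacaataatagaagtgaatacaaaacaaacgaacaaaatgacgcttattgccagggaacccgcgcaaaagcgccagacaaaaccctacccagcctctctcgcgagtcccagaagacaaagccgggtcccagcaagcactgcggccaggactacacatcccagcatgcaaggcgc
BAG1, chr9:33264709-33264958, minus strand: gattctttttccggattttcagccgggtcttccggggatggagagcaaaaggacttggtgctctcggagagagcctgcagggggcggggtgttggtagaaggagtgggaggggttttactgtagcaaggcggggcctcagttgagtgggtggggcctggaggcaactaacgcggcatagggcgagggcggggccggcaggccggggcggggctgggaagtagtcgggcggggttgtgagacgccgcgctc
BAG2, chr6:57172076-57172325, plus strand: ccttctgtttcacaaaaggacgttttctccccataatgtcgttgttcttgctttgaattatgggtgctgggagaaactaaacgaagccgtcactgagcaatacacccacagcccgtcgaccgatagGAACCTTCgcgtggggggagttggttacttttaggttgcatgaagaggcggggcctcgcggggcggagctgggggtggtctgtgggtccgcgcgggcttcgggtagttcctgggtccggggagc

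The 2-unit heat shock element, GAANNTTC or TTCNNGAA on either strand, is the core of the site that heat shock factor 1 binds. Its letters were in 11.6% of the 35116 promoter windows of the same length. Of the 11 windows available for 7 of the members (BAG1, BAG2, BAG3, BAG5, BAG6, HSPBP1 and HSPH1), 1 held it: BAG2, where GAACCTTC lay 124 bases before the start. The 3-unit form GAANNTTCNNGAA or TTCNNGAANNTTC, which contains the 2-unit form, was in 0.441% of all windows and in no member window. The CCAAT box, CCAAT or ATTGG, was in 32.01% of all windows and in no member window, and the endoplasmic reticulum stress element, a CCAAT box and CCACG separated by 9 bases, was in 0.0740% and in none. Of the 3 printed windows only that of BAG2 holds the match. A match in 1 of 11 member windows, beside 11.6% of all windows, was not tested against the direction of change. A window without a match says only that these letters are not in those 250 bases. Their GC content was 50.4% for HSPH1, 65.2% for BAG1 and 57.6% for BAG2, around the median of 58% over all windows.

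BAG1 binds the ATPase domain of HSP70 through its BAG domain, links it to the proteasome through a ubiquitin-like domain and, in its longer form, is a cofactor of the androgen receptor. The gene lies at chr9:33247820-33264720 on the minus strand. Its level was 51.1 FPKM under DMSO, 41.4 under APO and 47.1 under VER in C4-2B MDVR, and 143 under DMSO, 95.6 under APO and 116 under VER in CWR22Rv1. The lowest CWR22Rv1 library lay above the highest C4-2B MDVR library, and in both lines the order was DMSO, VER and APO. BAG1 fell with APO by 0.30 on the log2 scale in C4-2B MDVR and by 0.58 in CWR22Rv1. With VER it fell by 0.30 in CWR22Rv1, while its log2 change in C4-2B MDVR was -0.12.

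BAG3 pairs HSP70 with small heat shock proteins and steers clients to autophagy, and it is induced by heat shock factor 1. It lies at chr10:119651370-119677819 on the plus strand. The levels in C4-2B MDVR were 35.4 FPKM under DMSO, 27.4 under APO and 28.9 under VER, and those in CWR22Rv1 were 14.0, 12.7 and 12.8. All 3 libraries of C4-2B MDVR were above all 3 of CWR22Rv1, and the DMSO library was the highest of its line in both. BAG3 fell in C4-2B MDVR by 0.37 with APO and by 0.29 with VER on the log2 scale, and its changes in CWR22Rv1 were -0.14 and -0.13. The APO change in CWR22Rv1 was -0.29 with libraries brought to the same sum outside the mitochondrial chromosome. Its partner list (HSPB8, HSPB1, HSPB6, SYNPO2, SQSTM1 and DNAJB6) had 3 genes risen and 1 fallen of 5 tested in C4-2B MDVR with either inhibitor. HSPB6, among those risen, was at only 0.272 to 0.372 FPKM in that line. In CWR22Rv1, 1 rose and 1 fell of 6 with APO, and 1 rose and 2 fell with VER.

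BAG5, which carries several BAG domains and inhibits STUB1 as well as HSP70 refolding, lies at chr14:103556544-103562831 on the minus strand. It measured 24.0 FPKM under DMSO, 18.9 under APO and 21.0 under VER in C4-2B MDVR, and 15.4 under DMSO, 15.6 under APO and 12.3 under VER in CWR22Rv1. The low library was therefore the APO library in one line and the VER library in the other. In C4-2B MDVR its log2 changes were -0.34 with APO and -0.19 with VER, and in CWR22Rv1 they were 0.02 and -0.32. KLC1 on the other strand shares 936 bases with BAG5, and whether reads were counted by strand is not given in the sources used here. KLC1 read 40.2, 60.4 and 59.0 FPKM in C4-2B MDVR and 46.9, 55.7 and 34.99 in CWR22Rv1, in the order DMSO, APO and VER. It was highest with APO in C4-2B MDVR, where BAG5 was lowest, and like BAG5 it was lowest with VER in CWR22Rv1, and its part in the BAG5 values was not tested.

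BAG4 (SODD), known for holding death receptor domains silent, had the smallest range of the 10 genes over the 6 libraries. The levels were 11.9 FPKM under DMSO, 11.9 under APO and 11.3 under VER in C4-2B MDVR, and 12.6, 11.8 and 10.8 in CWR22Rv1. The highest library was 1.16 times the lowest over both lines. Its log2 changes ran from -0.22, with VER in CWR22Rv1, to 0.00, with APO in C4-2B MDVR. With libraries brought to the same sum the first of these was -0.28 and past the threshold.

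BAG2 is a brake on STUB1: it stops the ligase from working with its ubiquitin-conjugating enzyme and releases clients from HSP70. It lies at chr6:57172326-57189833 on the plus strand, downstream of the BAG2 sequence shown above. In C4-2B MDVR it measured 8.76 FPKM under DMSO, 11.5 under APO and 7.72 under VER, and in CWR22Rv1 2.82 under DMSO, 5.46 under APO and 2.57 under VER. APO gave the highest and VER the lowest library in both lines, and the lines did not overlap. BAG2 was the 1 member to rise with APO, by a log2 change of 0.39 in C4-2B MDVR and 0.93 in CWR22Rv1, and its changes with VER were -0.18 and -0.13. With libraries brought to the same sum the APO change in C4-2B MDVR was 0.24, under the threshold. The genes RAB23 and ZNF451-AS1, on the other strand, share 2842 and 1911 bases with BAG2. RAB23 read 7.25, 7.01 and 5.97 FPKM in C4-2B MDVR and 6.94, 9.99 and 5.43 in CWR22Rv1, in the order DMSO, APO and VER, so that it too was highest with APO in CWR22Rv1. In C4-2B MDVR, ZNF451-AS1 was listed at 0 with DMSO and read 2.16 FPKM with APO and 0.544 with VER, so that it was highest with APO like BAG2, and it was at or below 0.275 FPKM in CWR22Rv1. The part of either gene in the BAG2 values was not tested.

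BAG6 leads a complex that holds membrane proteins and mislocalized chains until they are inserted or degraded. It lies at chr6:31639028-31652705 on the minus strand. Its level was 130 FPKM under DMSO, 116 under APO and 106 under VER in C4-2B MDVR, and 117, 104 and 83.1 in CWR22Rv1. The same order of DMSO, APO and VER held in both lines. The log2 changes with VER were -0.29 in C4-2B MDVR and -0.49 in CWR22Rv1, and those with APO were -0.17 in both. Rescaled to a median ratio of 1, the VER change in C4-2B MDVR was -0.26 and no longer past 1.2-fold, while the same sum outside the mitochondrial chromosome made both APO changes -0.33 and past it. Of 6 BAG6 partners (UBL4A, GET4, GET3, SGTA, RNF126 and CAMLG), 2 rose and 3 fell in C4-2B MDVR with either inhibitor, and 2 rose and 2 fell in CWR22Rv1 with either.

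HSPBP1, an exchange factor built of armadillo repeats that also inhibits STUB1, lies at chr19:55262231-55280381 on the minus strand. Its levels were 33.6 FPKM under DMSO, 36.5 under APO and 29.5 under VER in C4-2B MDVR, and 25.6, 29.6 and 20.5 in CWR22Rv1. As for BAG2, APO gave the highest and VER the lowest library of each line. The log2 changes with APO were 0.12 and 0.21, under the threshold, and HSPBP1 fell with VER in CWR22Rv1 by 0.32 on the log2 scale, with -0.19 in C4-2B MDVR. With libraries brought to the same sum outside the mitochondrial chromosome the APO change in C4-2B MDVR was -0.04, and with the same total sum that in CWR22Rv1 was 0.33 and past the threshold.

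HSPH1 (HSP110) is both an exchange factor for HSP70 and a holder of unfolded proteins, and it is a classical target of heat shock factor 1. It lies at chr13:31134974-31162388 on the minus strand, just after the HSPH1 sequence shown above. It measured 81.7 FPKM under DMSO, 35.3 under APO and 44.0 under VER in C4-2B MDVR, and 25.7 under DMSO, 11.0 under APO and 23.1 under VER in CWR22Rv1. Every C4-2B MDVR library was above every CWR22Rv1 library, and both APO libraries were the lowest of their line. HSPH1 fell with APO by 1.21 on the log2 scale in C4-2B MDVR and by 1.22 in CWR22Rv1, a DMSO level 2.31 and 2.35 times that with APO. With VER it fell by 0.89 in C4-2B MDVR and its change in CWR22Rv1 was -0.15. Whether the VER changes of the lines differ could not be tested with 1 library each.

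ST13 (HIP) slows the release of ADP and so works against the exchange factors. It lies at chr22:40824535-40857022 on the minus strand. Levels in C4-2B MDVR were 110 FPKM under DMSO, 122 under APO and 124 under VER, and in CWR22Rv1 70.6, 78.6 and 77.2. The inhibitor libraries were above DMSO in both lines. The 4 log2 changes were close together, 0.15 and 0.17 in C4-2B MDVR and 0.15 and 0.13 in CWR22Rv1, and none passed 1.2-fold. ST13 was the only member with 4 changes above 0, but with libraries brought to the same sum outside the mitochondrial chromosome the APO change in C4-2B MDVR was -0.01, and with the same total sum the APO change in CWR22Rv1 was 0.27 and past the threshold.

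STUB1 was measured at 135 FPKM under DMSO, 132 under APO and 115 under VER in C4-2B MDVR, and at 141, 145 and 123 in CWR22Rv1. It lies at chr16:680224-682870 on the plus strand. VER gave the lowest library in both lines, and the ranges of the lines overlapped. In C4-2B MDVR its log2 changes were -0.03 with APO and -0.24 with VER, and in CWR22Rv1 they were 0.04 and -0.20. None passed 1.2-fold, although with libraries brought to the same sum the VER change in CWR22Rv1 was -0.27 and did. JMJD8 on the other strand shares 1200 bases with STUB1. In the order DMSO, APO and VER it measured 80.3, 61.3 and 72.1 FPKM in C4-2B MDVR and 43.3, 32.5 and 43.8 in CWR22Rv1. JMJD8 was lowest with APO in both lines and STUB1 with VER, and the part of JMJD8 in the STUB1 values was not tested.

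The enzymes that STUB1 works with were examined as a list of 7 (UBE2D1, UBE2D2, UBE2D3, UBE2N, UBE2V1, UBE2W and the deubiquitinase ATXN3). With APO, 3 rose and 2 fell in C4-2B MDVR and 5 rose and 1 fell in CWR22Rv1, with median log2 changes of 0.14 and 0.45. With VER, 1 rose and 1 fell in C4-2B MDVR and 2 rose and 2 fell in CWR22Rv1, with medians of -0.10 and 0.09. Of 7 other co-chaperones with tetratricopeptide repeats (STIP1, TOMM34, DNAJC7, SGTA, SGTB, TTC4 and UNC45A), 1 rose and 2 fell with APO and 2 rose and 4 fell with VER in C4-2B MDVR. In CWR22Rv1, 3 rose and 2 fell with APO and 1 rose and 2 fell with VER.

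HSPH1 and BAG3 are both targets of heat shock factor 1, and a list of 18 other well-known targets was set beside them. Of the 18, 12 fell and 4 rose with APO in C4-2B MDVR, 13 fell and 3 rose with VER in C4-2B MDVR, 11 fell and 1 rose with APO in CWR22Rv1, and 2 fell and 4 rose with VER in CWR22Rv1. The medians were -0.62, -0.68, -0.41 and -0.06 in that order. The median over all genes tested was between -0.01 and 0.00 in the same comparisons. HSPH1 was below the list's median in all 4 comparisons and BAG3 was above it in the first 3. HSF1 itself was at 63.0 FPKM under DMSO, 64.5 under APO and 62.4 under VER in C4-2B MDVR, and at 32.1, 44.0 and 29.7 in CWR22Rv1. Its change passed 1.2-fold with APO in CWR22Rv1, where it rose by 0.45 on the log2 scale.

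**Figure D3:**
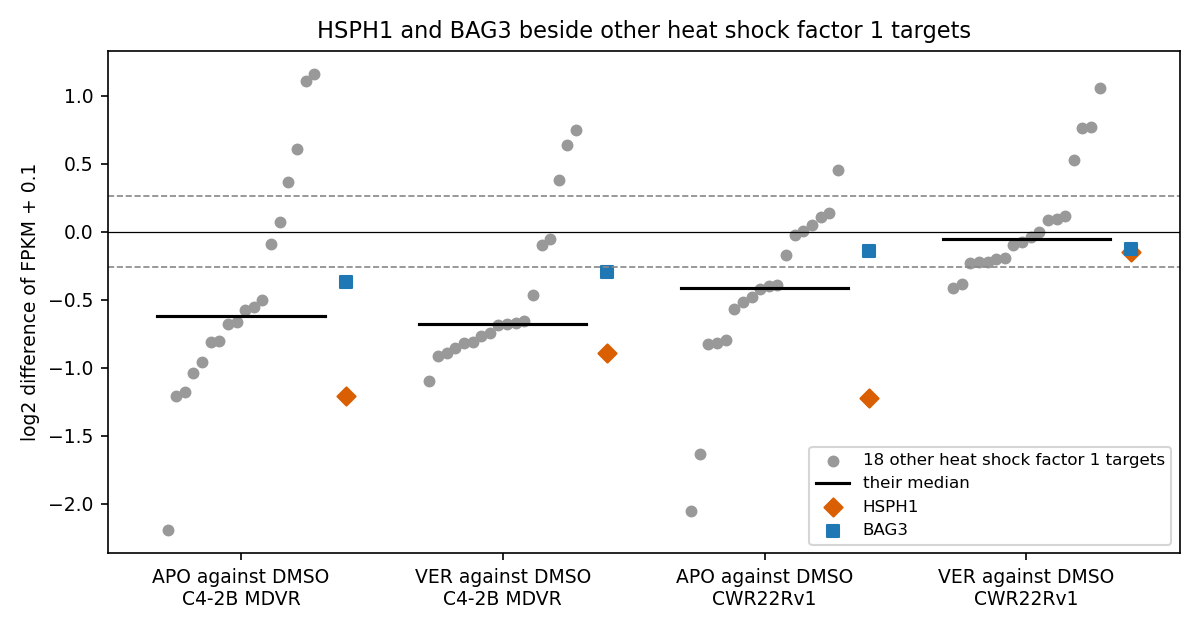
Log2 difference of FPKM + 0.1 between each inhibitor and DMSO for 18 other heat shock factor 1 targets (grey points, sorted, with a black line at their median), HSPH1 (orange diamonds) and BAG3 (blue squares), with dashed lines at 1.2-fold. The medians are -0.62, -0.68, -0.41 and -0.06 from left to right, and HSPH1 lies at -1.21, -0.89, -1.22 and -0.15.

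The HSP70 genes on whose products these co-chaperones act are given beside them. HSPA8, the constitutive cytosolic HSP70, was at 1332 FPKM under DMSO, 1399 under APO and 719 under VER in C4-2B MDVR, and at 713, 545 and 1210 in CWR22Rv1. VER thus gave the lowest library of one line and the highest of the other, with log2 changes of -0.89 and 0.76. HSPA1A and HSPA1B, the stress-inducible cytosolic HSP70 genes, are nearly identical, and reads may have been split between them. HSPA1A was below 0.16 FPKM in each C4-2B MDVR library and at 5.79, 1.32 and 12.1 FPKM in CWR22Rv1, while HSPA1B was at 62.1, 13.5 and 33.0 in C4-2B MDVR and 39.2, 12.5 and 56.6 in CWR22Rv1, in the order DMSO, APO and VER. Their sum was 62.2, 13.6 and 33.1 FPKM in C4-2B MDVR and 45.0, 13.8 and 68.7 in CWR22Rv1. The sum was lowest with APO in both lines, at log2 changes of -2.18 and -1.69, and with VER it changed by -0.91 and 0.61.

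Of all 12 HSP70 genes listed, 4 rose and 3 fell with APO and 5 rose and 5 fell with VER in C4-2B MDVR. In CWR22Rv1, 4 rose and 7 fell with APO and 7 rose and 1 fell with VER. Some of these calls rest on low values: HSPA6 and HSPA12B were below 1 FPKM in every library. HSPA1A and HSPA2 were below 1 FPKM in C4-2B MDVR, and HSPA12A in CWR22Rv1. Of 6 other exchange factors (HSPA4, HSPA4L, HYOU1, SIL1, GRPEL1 and GRPEL2), 3 rose and 3 fell with APO and 4 rose and 2 fell with VER in C4-2B MDVR, and 4 rose and 0 fell with APO and 2 rose and 1 fell with VER in CWR22Rv1. Over all the lists, HSPA13 and SIL1 changed by more than 1.5-fold the same way in all 4 comparisons. HSPA13, an HSP70 of the endoplasmic reticulum, was at 25.3 FPKM under DMSO, 125 under APO and 71.5 under VER in C4-2B MDVR and at 29.1, 102 and 90.1 in CWR22Rv1. SIL1, the exchange factor of the endoplasmic reticulum HSP70 HSPA5, was at 43.4, 80.9 and 69.8 FPKM in C4-2B MDVR and 23.4, 41.1 and 35.9 in CWR22Rv1. Both were named for changing in all 4 comparisons, and both rose with each inhibitor in each line. At 1.2-fold the list genes SQSTM1, ATXN3, GRPEL2, CAMLG and GET3 also rose in all 4 comparisons, GET3 only just so with VER in CWR22Rv1. RNF126, STIP1 and FKBP4 fell past 1.2-fold in all 4. HSPA5 and HYOU1, also of the endoplasmic reticulum, did not pass 1.2-fold with VER in CWR22Rv1, at 0.18 and 0.23. The share of all genes that rose, or that fell, in all 4 was not computed.

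Ratios within a library do not depend on how libraries are scaled to each other. The 7 exchange factors among the members (BAG1, BAG2, BAG3, BAG4, BAG5, HSPBP1 and HSPH1) summed to 0.177 of the cytosolic HSP70 genes (HSPA8, HSPA1A and HSPA1B) under DMSO, 0.130 under APO and 0.252 under VER in C4-2B MDVR, and to 0.316, 0.325 and 0.155 in CWR22Rv1. With VER the ratio was 1.43 times that with DMSO in C4-2B MDVR, and in CWR22Rv1 the DMSO ratio was 2.03 times that with VER. HSPA8 made up most of the denominator. The ratio of STUB1 to HSPA8 showed the same split, at 0.101 under DMSO, 0.0946 under APO and 0.159 under VER in C4-2B MDVR and 0.198, 0.267 and 0.101 in CWR22Rv1.

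The ratio of ST13 to HSPH1, which oppose each other at the nucleotide step, was 1.34 under DMSO, 3.44 under APO and 2.81 under VER in C4-2B MDVR and 2.75, 7.17 and 3.34 in CWR22Rv1. DMSO gave the lowest ratio in both lines, and the ratio with APO was 2.56 times that with DMSO in C4-2B MDVR and 2.61 times in CWR22Rv1. Of the 3 inhibitors of STUB1, BAG2 stood at 0.0648 of STUB1 with DMSO and 0.0871 with APO in C4-2B MDVR and at 0.02001 and 0.0376 in CWR22Rv1. HSPBP1 stood at 0.167 to 0.276 and BAG5 at 0.100 to 0.184 of STUB1 over the 6 libraries. STUB1 RNA therefore exceeded that of each of these inhibitors in every library.

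**Figure D4:**
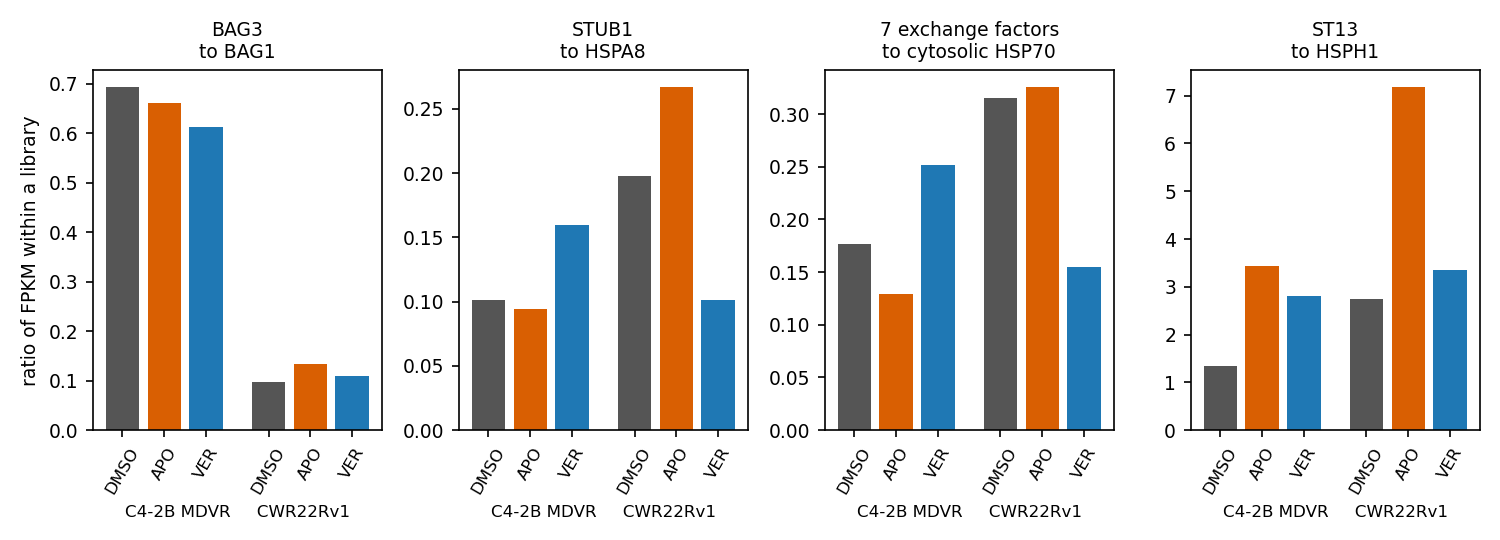
Ratio of FPKM within each library (bars, 1 library each) for BAG3 to BAG1, STUB1 to HSPA8, the 7 exchange factors to the cytosolic HSP70 genes, and ST13 to HSPH1, in C4-2B MDVR and CWR22Rv1 with DMSO, APO or VER. BAG3 to BAG1 separates the lines, at 0.613 to 0.693 against 0.0976 to 0.133, and the 2 ratios to HSP70 genes move in opposite directions with VER in the 2 lines.

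The inhibitors were also compared with each other within a line. With VER against APO in C4-2B MDVR, HSPH1 was higher and BAG2 and HSPBP1 were lower, 3 of 10 against 61.0% of genes (28.5% higher and 32.5% lower). In CWR22Rv1, BAG1 and HSPH1 were higher with VER than with APO and BAG2, BAG5, BAG6 and HSPBP1 were lower, 6 of 10 against 71.8% (37.3% higher and 34.5% lower). HSPH1, BAG2 and HSPBP1 therefore differed between the inhibitors in both lines, with log2 differences of VER minus APO of 0.32 and 1.07 for HSPH1, -0.57 and -1.06 for BAG2 and -0.31 and -0.53 for HSPBP1, in the order C4-2B MDVR and CWR22Rv1. With the same total sum the HSPBP1 difference in C4-2B MDVR was -0.16, and in CWR22Rv1 that of BAG1 was 0.10, under the threshold, while those of STUB1 (-0.43) and BAG4 (-0.30) passed it. In C4-2B MDVR the same sum took BAG1 (0.33) and BAG5 (0.30) past it. With the same sum outside the mitochondrial chromosome BAG5 (-0.26) and BAG6 (-0.23) no longer passed in CWR22Rv1, nor did BAG6 (-0.26) at a median ratio of 1.

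The lines were compared under DMSO, where 7 of the 10 genes differed against 75.4% of 23671 genes (35.5% higher and 39.9% lower in C4-2B MDVR). In C4-2B MDVR, BAG2, BAG3, BAG5, HSPBP1, ST13 and HSPH1 were higher and BAG1 was lower. The differences of 2-fold or more were those of HSPH1 (3.18-fold higher in C4-2B MDVR), BAG2 (3.10-fold higher), BAG3 (2.53-fold higher) and BAG1 (2.80-fold higher in CWR22Rv1). BAG5 and ST13 had log2 differences of 0.64 each and HSPBP1 of 0.39. STUB1, BAG4 and BAG6 did not pass 1.2-fold, at -0.06, -0.09 and 0.16. Of the 18 other heat shock factor 1 targets, 13 were higher and 2 lower in C4-2B MDVR, and HSF1 was 0.97 higher on the log2 scale.

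The opposite differences of BAG1 and BAG3 gave a ratio that set the lines apart in every treatment. BAG3 RNA was 0.693 of BAG1 RNA under DMSO, 0.661 under APO and 0.613 under VER in C4-2B MDVR, and 0.0976, 0.133 and 0.110 in CWR22Rv1. The ratio with DMSO was 7.10 times higher in C4-2B MDVR. Within a line it moved far less, by at most 1.36-fold, with APO in CWR22Rv1. BAG1 took 25.2% of the summed level of the 10 genes in CWR22Rv1 DMSO, where it was the first of the 10, and 8.22% in C4-2B MDVR DMSO, where it was the fifth.

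Among 12279 protein-coding genes averaging 1 FPKM or more, those most like each member were chosen by the smallest value of the largest log2 difference over the 4 comparisons with DMSO. HSPH1 had the most distant neighbours, VSIG10L at 0.13, CFAP44 at 0.17 and DPYSL4 at 0.18, whereas the nearest to BAG3 was HMCES at 0.02. The nearest gene was ADH5 for BAG2 (0.08), LRP6 for BAG1 (0.05), GTF2A1 for STUB1 (0.03), VTI1B for ST13 (0.03) and ZBTB5 for BAG4 (0.03). For BAG5, BAG6 and HSPBP1 it was ZBTB44, TUBGCP2 and PRKRA at 0.05, 0.05 and 0.06. None of the 3 nearest genes of any member was another member, and with 12279 candidates and 4 values a gene, a near match is a description only.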

How the data were processed

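RNA from each of the 6 conditions was sequenced in 1 library of paired-end reads. Per the labels, poly-A RNA was prepared with a stranded KAPA kit that marks the second strand with dUTP, while the study's methods name a TruSeq kit. The authors aligned reads with HISAT to GRCh38 and deposited FPKM values per gene from Cufflinks, normalized between libraries by Cuffnorm, as the submitters' processing notes name these tools and build. The study's methods name HISAT, a TopHat and Cufflinks pipeline and StringTie, and no build. The versions, the annotation release and the use of strand in counting are not given in the sources used here. FPKM values are not counts and whole reads were not recovered, so no count model, counting interval or detection floor was used.

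Identifiers were matched to GENCODE 29 on GRCh38 (57047 of 60658), from which positions come. Changes are differences of log2(FPKM + 0.1) over genes that exceed 0.1 FPKM in 1 or more of a line's 3 libraries, or of the 6 for the comparison of lines, and were called above 1.2-fold. With 1 library per condition no p-value was computed within a line, and the spread between cultures is unknown. Each inhibitor was also tested over both lines with limma 3.58.1 (R 4.3.3) on log2(FPKM + 0.1) with the line as a block, a fit with 2 residual degrees of freedom that was chosen after seeing the data and run on simulated data first. The variance of each gene was moderated toward a trend over all genes. The members and the gene lists were chosen with earlier results of these data known. Named by rule outside the members are list genes changed above 1.5-fold the same way in all 4 comparisons with DMSO, HSPA8, HSPA1A, HSPA1B and HSF1, and the genes whose changes were nearest to each member's. Further list genes given with their changes, among them those past 1.2-fold the same way in all 4 comparisons, were named after their values were seen. The lists are HSP70 genes, other exchange factors, partners of BAG6, STUB1 and BAG3, heat shock factor 1 targets and tetratricopeptide co-chaperones. Promoter windows are the 250 bases upstream of RefSeq starts on GRCh38.p14, with 11 windows for 7 members. Protein sequences were not analysed here.

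The alternatives tried were a pseudocount of 0.01 or 1, a filter left out or set at FPKM above 0.1 in every library or above 1 in at least 1, rescaling to a median ratio of 1, to the same sum (TPM) or to the same sum outside the mitochondrial chromosome, thresholds of 1.5-fold and 2-fold, protein-coding genes, and 1 FPKM added to both terms of a ratio. The functions were run on copies of the C4-2B MDVR DMSO library without added noise, with 200 genes changed by 2-fold or more in the copy named APO. The direction of 200 of 200 changed genes among 17603 was recovered and 0 others were called. Copies without noise fix this outcome in advance, so it checks the code and says nothing of false calls between real libraries. Scripts ran under Python 3.11.15 with numpy 2.4.6, pandas 2.3.3, matplotlib 3.10.9 and scipy 1.17.1.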

Additional observations from a re-analysis of the deposited data

Results flagged for a closer look

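None of the 10 co-chaperone genes moved past 1.2-fold in opposite directions in the 2 lines with the same inhibitor. The results below did, each with 1 library per condition, so that the difference between the lines was not tested.

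With VER, HSPA8 had a log2 change of -0.89 in C4-2B MDVR and of 0.76 in CWR22Rv1. HSPA1B changed with VER by -0.91 and 0.53, and the sum of HSPA1A and HSPA1B by -0.91 and 0.61, in the same order. The ratio of STUB1 to HSPA8 changed with VER by 0.65 on the log2 scale in C4-2B MDVR and by -0.97 in CWR22Rv1. The ratio of the 7 exchange factors to the cytosolic HSP70 genes changed by 0.51 and -1.02. Both ratios share HSPA8 in their denominator, so they are not separate from the HSPA8 values.

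With APO, HSPA1A alone had a log2 change of 0.61 in C4-2B MDVR and of -2.05 in CWR22Rv1. Its level in C4-2B MDVR was 0.0691 FPKM with DMSO and 0.158 FPKM with APO, near the filter of 0.1 FPKM, and it is nearly identical to HSPA1B.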

How the results depend on the processing

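The thresholds decided most counts of members changed. At 1.5-fold, 1 member (HSPH1) was past it with APO and 1 (HSPH1) with VER in C4-2B MDVR, 2 (BAG2 and HSPH1) with APO and 0 with VER in CWR22Rv1, and for VER against APO 0 in C4-2B MDVR and 2 (BAG2 and HSPH1) in CWR22Rv1, beside 48.3%, 46.1%, 51.2%, 36.6%, 33.1% and 46.2% of all genes. At 2-fold the counts were 1, 0, 1, 0, 0 and 2 in the same order and 4 between the lines, beside 28.7%, 27.8%, 30.6%, 19.8%, 19.1%, 26.2% and 41.1% of all genes. With APO, 1 member (HSPH1) changed the same way in both lines at 1.5-fold and 1 at 2-fold, beside 23.0% and 10.5% of all genes, and 0 did with VER, beside 15.9% and 6.09%. With libraries brought to the same sum, or to the same sum outside the mitochondrial chromosome, 5 members changed with APO in CWR22Rv1 rather than 3, with 3 higher and 2 lower under the first and 1 higher and 4 lower under the second. With VER in CWR22Rv1, 6 members changed under each rather than 4, all lower, beside 65.4% and 65.7% of all genes. These rescalings added -0.15 and -0.16 to all log2 changes with APO in C4-2B MDVR and 0.12 and -0.15 with APO in CWR22Rv1. They made the split 0 higher and 5 lower with APO in C4-2B MDVR, 3 higher and 1 lower for VER against APO in C4-2B MDVR, and 1 and 6 or 2 and 2 for VER against APO in CWR22Rv1, where that of all genes changed too (from 46.8% higher among changed genes in C4-2B MDVR to 60.04% and 62.4%). Rescaled to a median ratio of 1, 0 members changed the same way in both lines with VER, since BAG6 in C4-2B MDVR was at -0.26. With APO and the same sum, BAG1 and HSPH1 changed the same way in both lines and BAG2 did not. With the same sum outside the mitochondrial chromosome, BAG1, BAG3, BAG6 and HSPH1 did so with APO, again without BAG2. No member that changed turned its direction under the pseudocounts or rescalings. The members called did not alter with a pseudocount of 0.01 or 1, and the ratios of BAG3 to BAG1, STUB1 to HSPA8 and the 7 exchange factors to cytosolic HSP70, the ones recomputed, moved by less than 1.5 times with 1 FPKM added to both terms. Several calls lay near the threshold, such as BAG6 (-0.29) and STUB1 (-0.24) with VER in C4-2B MDVR. With the line as a block, a fit chosen after seeing the data, 0 members passed an adjusted p of 0.05 in limma with APO and 0 with VER. Within a line no replicate could be left out, and the counting error of these FPKM values is unknown.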

Other observations

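A few partners of the co-chaperones were chosen after their values were seen. SQSTM1 (p62), the autophagy receptor that works with BAG3, was at 207 FPKM under DMSO, 744 under APO and 306 under VER in C4-2B MDVR and at 73.9, 271 and 106 in CWR22Rv1. It was thus highest with APO in both lines, where BAG3 was highest with DMSO. SGTB, a tetratricopeptide co-chaperone of HSP70, was at 2.30, 12.4 and 6.14 FPKM in C4-2B MDVR and at 2.52, 7.05 and 2.80 in CWR22Rv1, so that it was highest with APO as well.

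In the endoplasmic reticulum, HSPA5 (BiP) was at 278 FPKM under DMSO, 2035 under APO and 863 under VER in C4-2B MDVR and at 437, 727 and 495 in CWR22Rv1. HYOU1, the HSP110 relative of that compartment, was at 115, 359 and 244 FPKM in C4-2B MDVR and at 114, 210 and 133 in CWR22Rv1. With APO, HYOU1 therefore changed by 1.64 and 0.89 on the log2 scale, while HSPH1, a cytosolic relative, changed by -1.21 and -1.22. With VER the changes were 1.08 and 0.23 for HYOU1 and -0.89 and -0.15 for HSPH1. Of the other exchange factors listed, HSPA4 changed with APO by -0.85 in C4-2B MDVR and 0.46 in CWR22Rv1, and HSPA4L by -0.80 and 0.11. No replicate bears on these differences and their cause was not tested.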
